A study of Mus musculus with 4 samples.

Results

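The levels of 10 genes that build, decorate or crosslink the extracellular matrix were followed through mouse embryonic stem (ES) cells with and without p53. They were taken by name: Lox, Loxl1, Thbs1, Tnc, Bgn, Dcn, Sparc, Fn1, Mgp and Timp3. All 10 were found, as 17 of the 30769 transcript rows and as 10 of 22400 genes. The FPKM of a gene (fragment counts scaled by transcript length and by the mapped fragments of the library) is the sum over its transcripts. Poly(A) RNA came from ES cells of the strain C57BL/6X129Sv mix, at less than 20 passages, grown in serum with leukemia inhibitory factor. The 4 groups were p53+/+ untreated, p53+/+ with Adriamycin, p53-/- untreated and p53-/- with Adriamycin. Adriamycin (doxorubicin, a topoisomerase II poison that breaks DNA) was given at 0.5 uM over 8 hours. Each group has 1 library, so there is no replicate spread, no test and no p-value, and every difference below is a difference between libraries. The labels do not say which part of the p53 gene was removed or how many ES lines were used, and their growth protocol mentions no feeder layer. Where a pair of values is given for a genotype, the first is the untreated and the second the Adriamycin library; they are not replicates.

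The extracellular matrix is a mesh of collagens, fibronectin and proteoglycans that cells secrete and then hold on to through integrins. Lysyl oxidases crosslink collagen and elastin and so stiffen that mesh. Matricellular proteins such as thrombospondin, tenascin and SPARC do not bear load themselves but change how cells attach and how growth factors are released. Fibroblasts and other mesenchymal cells are rich sources of these proteins, while SPARC and fibronectin are also made in the early embryo.

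The libraries held between 3.34 and 4.32 gigabases of aligned sequence, estimated as coverage times transcript length, with the larger totals in the p53+/+ libraries. In all 4, the 10 stem cell markers examined (Pou5f1, Nanog, Sox2, Zfp42, Esrrb, Klf4, Tdgf1, Utf1, Dppa5a and Fgf4) were above 1 FPKM, and their summed level was 4461 and 3027 FPKM with p53 and 3176 and 2784 FPKM without it. Trp53 itself stood at 216 and 165 FPKM in the p53+/+ libraries and was still read at 78.6 and 76.5 FPKM in the p53-/- libraries. Its target Cdkn1a gave 26.2 and 85.8 FPKM with p53 and 18.0 and 24.6 FPKM without it.

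Sequence matters here chiefly for fibronectin, whose transcript is spliced at 3 places. The extra domain exons EDB and EDA each encode 1 more fibronectin type III repeat, and the variable region carries binding sites for integrins. All 7 Fn1 transcripts of the tables were matched to GENCODE release M21 on GRCm38. EDB is the exon of 273 bases at chr1:71613763-71614035 and EDA the exon of 270 bases at chr1:71603660-71603929, both coding and both on the minus strand. They are printed in full because the genotypes differed in how much Fn1 RNA was assigned to transcripts with and without them, and no base is marked.
EDB: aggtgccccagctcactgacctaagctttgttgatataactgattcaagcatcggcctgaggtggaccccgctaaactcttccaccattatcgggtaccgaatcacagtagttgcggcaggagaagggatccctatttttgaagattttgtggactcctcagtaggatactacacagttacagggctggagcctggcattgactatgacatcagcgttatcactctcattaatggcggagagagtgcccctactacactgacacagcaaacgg
EDA: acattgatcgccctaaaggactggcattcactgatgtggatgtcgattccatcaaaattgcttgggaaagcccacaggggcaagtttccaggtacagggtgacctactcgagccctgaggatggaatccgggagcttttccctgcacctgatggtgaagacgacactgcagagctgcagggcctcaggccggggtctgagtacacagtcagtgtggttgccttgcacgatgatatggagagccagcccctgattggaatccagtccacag

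For 4 of the 10 genes a start site was matched in the RefSeq promoter table (GRCm38.p6). The 250 bases before the start are shown for Tnc and Bgn, which stood far apart between the genotypes. The table gives Tnc 2 start sites, and the window shown is the one that overlaps no GENCODE exon, as does that of Bgn. Capitals mark TATAAA and GGGCGG on either strand. The Tnc window is chr4:64047016-64047265 on the minus strand and the Bgn window chrX:73483351-73483600 on the plus strand.
Tnc: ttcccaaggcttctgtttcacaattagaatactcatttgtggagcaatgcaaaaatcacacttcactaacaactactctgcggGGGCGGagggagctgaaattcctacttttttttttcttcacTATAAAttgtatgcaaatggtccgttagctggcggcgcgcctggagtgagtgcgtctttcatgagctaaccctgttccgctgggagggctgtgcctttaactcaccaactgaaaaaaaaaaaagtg
Bgn: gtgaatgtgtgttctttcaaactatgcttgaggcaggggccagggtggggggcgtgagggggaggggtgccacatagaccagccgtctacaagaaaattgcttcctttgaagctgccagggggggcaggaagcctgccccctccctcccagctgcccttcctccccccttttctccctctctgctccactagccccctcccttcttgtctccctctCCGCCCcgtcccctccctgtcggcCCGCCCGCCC

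The Tnc window holds 1 TATAAA, 126 to 121 bases before the start, and 1 GGGCGG. The Bgn window holds no TATAAA and 3 copies of GGGCGG, read on the other strand as CCGCCC, of which 2 overlap just before the start. Among 32817 promoter windows of the same length, 12.4% hold TATAAA and 32.7% hold GGGCGG. Guanine and cytosine made up 44.8% of the Tnc window and 64.4% of the Bgn window, against a median of 52.4% over all windows. The window of the other Tnc start, 51.2% guanine and cytosine, overlaps 1 exon and holds the same 2 matches. Neither window holds TGANTCA (6.75% of all windows), the letters GGAATG (12.6%) or the p53 half-site (7.12%). The Sparc window holds 1 p53 half-site, AGGCAAGTTC, 219 to 210 bases before the start, and the Timp3 window holds 1 GGGCGG. These matches describe letters only. Both printed windows hold GGGCGG, and TATAAA is in the Tnc window alone of the pair.

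Differences between libraries are given in log2(FPKM + 1), a scale on which low genes look closer than their ratio. A step of 1 or more in either direction is what counts as higher or lower. Counts over all genes cover the 13011 genes with at least 1 FPKM in at least 1 library. All 10 genes passed that filter, but Lox, Tnc, Mgp and Dcn passed it only through the p53-/- libraries. Bounds in brackets are the 95% bounds of the deposited tables, which cover counting and assignment error only. They are left out where the FPKM lies outside its own bounds, as it does for Sparc in every library and for Bgn and Mgp in the p53-/- libraries.

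Without treatment, most of the 10 genes were higher in p53-/- than in p53+/+ cells. Of the 10, 8 were higher by at least 1 and 0 were lower, where 3.51% of all genes were higher and 3.14% lower by that step. The median difference of the 10 genes was 3.46, beside -0.05 over all genes. After Adriamycin the count was 9 of 10 higher and 0 lower, where 6.73% of all genes were higher and 13.0% lower. The median was then 3.31 for the 10 genes and -0.02 over all genes. The 4 genes that passed the filter only through the p53-/- libraries had to stand higher there and are in both counts. Of the other 6, 4 were higher without treatment and 5 after it. The 10 genes were chosen with earlier results of these data known, so the all-gene shares give scale only. For all 10 genes both p53-/- libraries stood above both p53+/+ libraries, an order that 26.6% of all genes show at any size, while 29.0% show the opposite order. The genotype and Adriamycin comparisons share libraries, so they are not independent of each other. Fewer cells of a type and less RNA per cell cannot be told apart in such bulk RNA.

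**Figure D1:**
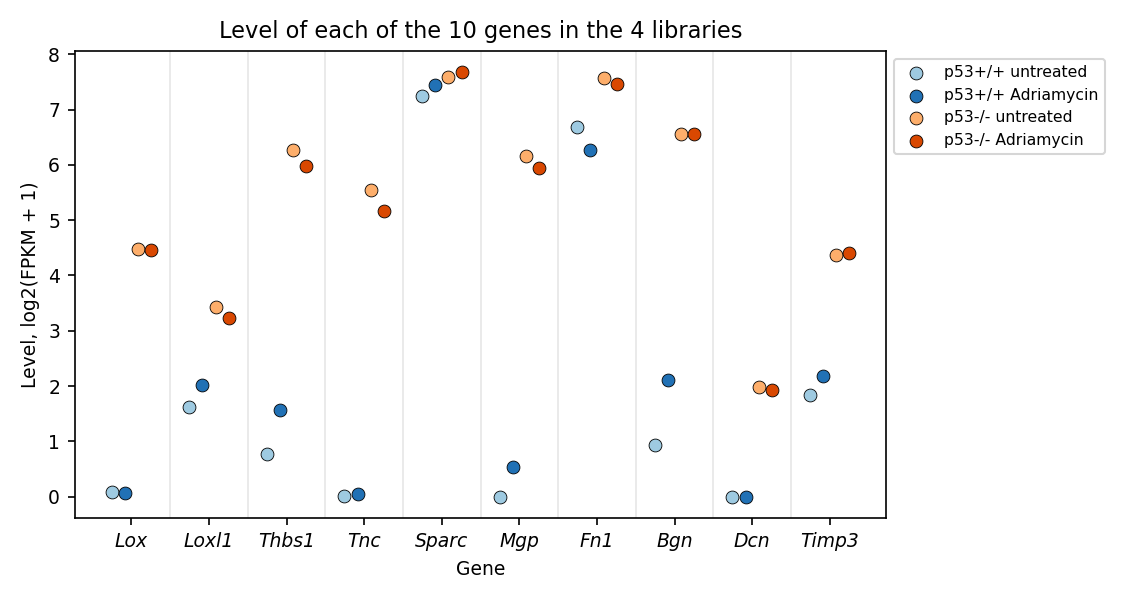
Level of each of the 10 genes on the log2(FPKM + 1) scale (vertical axis), with 1 point per library and no error bars because each group has 1 library. Lox, Tnc, Mgp and Dcn lie near 0 in both p53+/+ libraries, while Sparc and Fn1 are high in all 4.

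The crosslinking enzymes are Lox and Loxl1, copper-dependent amine oxidases that act on lysines of collagen and elastin. Lox (chr18:52676892-52689362 in mm9) stood at 0.0640 FPKM (0.0202 to 0.111) and 0.0443 FPKM (0.0105 to 0.0840) with p53. In p53-/- cells it reached 21.3 FPKM (19.4 to 22.2) and 21.02 FPKM (19.1 to 21.6). Its transcript was thus almost unread in p53+/+ cells, with a mean read depth of 0.377 and 0.219 against 85.9 and 91.9. The genotypes differed by 4.39 on the log2(FPKM + 1) scale without treatment and by 4.40 after it. Loxl1 (chr9:58135530-58161019) was present in every library. It stood at 2.07 FPKM (1.71 to 2.41) and 3.06 FPKM (2.60 to 3.52) where p53 was intact. The p53-/- libraries gave 9.76 FPKM (8.63 to 10.6) and 8.41 FPKM (7.39 to 9.05), which was 4.71-fold more without treatment and 2.75-fold more after it. Both oxidases were therefore higher in p53-/- cells, Lox from a level near 0 and Loxl1 from a low one.

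Most other genes of collagen and elastin crosslinking reached the step in neither direction. Of 15 further genes for modifying or crosslinking enzymes and their helpers, 14 passed the filter. In untreated p53-/- cells 2 were higher (Loxl3 and Bmp1), 1 was lower (Plod2) and 11 were neither (median difference 0.33). Over all genes 3.51% were higher and 3.14% lower. After Adriamycin Loxl3 and P4hb were higher and Plod2 lower (median 0.35), where 6.73% of all genes were higher and 13.0% lower. Loxl3, another lysyl oxidase, gave 0.441 and 1.53 FPKM with p53 and 7.57 and 6.56 FPKM without it. Bmp1, a protease that trims procollagen and pro-lysyl oxidase, stood at 1.48 and 4.82 FPKM against 7.71 and 6.92 FPKM. Plod2, which hydroxylates collagen lysines, went the other way, at 36.7 and 86.1 FPKM in p53+/+ and 14.3 and 15.8 FPKM in p53-/- cells.

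The matricellular genes Thbs1 and Tnc ranked 6 and 5 from the highest difference of all genes in the untreated genotype comparison. Thbs1 (chr2:117937658-117952869) encodes thrombospondin 1, which activates latent TGF-beta and restrains blood vessel growth. With p53 it gave 0.704 FPKM (0.571 to 0.834) and 1.95 FPKM (1.70 to 2.19). The p53-/- libraries gave 76.1 FPKM (72.5 to 76.5) and 62.2 FPKM (59.0 to 62.4). The p53-/- level was 108-fold higher without treatment and 32.0-fold higher after it, with the treated p53+/+ library above the untreated one and the treated p53-/- library below. Tnc (chr4:63620819-63708049) encodes tenascin C, a large glycoprotein of healing and developing tissue that weakens attachment to fibronectin. It was at 0.00527 FPKM and 0.0383 FPKM (0.0107 to 0.0640) in p53+/+ cells, with a mean read depth of only 0.0310 and 0.139. In p53-/- cells it stood at 45.5 FPKM (43.4 to 46.6) and 34.99 FPKM (33.3 to 35.9). The differences were 5.53 and 5.12 on the log2(FPKM + 1) scale, and no ratio is given because so few reads lie behind the low values.

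Sparc (chr11:55208003-55233582) encodes a collagen-binding glycoprotein and differed least. Its level was 151 and 172 FPKM with p53 and 192 and 204 FPKM without it. The untreated p53-/- level was 1.27-fold and the treated one 1.19-fold that of p53+/+ cells, so Sparc did not reach the step of 1 in either comparison (0.34 and 0.24). Mgp (chr6:136820956-136824326) encodes matrix Gla protein, a small inhibitor of calcification, and showed the widest difference of the 10 genes. With p53 it was listed at 0 without treatment and gave 0.456 FPKM (0.126 to 0.758) with Adriamycin, against 70.1 and 60.7 FPKM without p53. The difference was 6.15 without treatment and 5.41 with it, and Mgp ranked 2 from the highest of the 13011 genes in each.

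The matricellular relatives outside the 10 genes were in part higher in p53-/- cells. Of 20 further matricellular genes 13 passed the filter, and untreated p53-/- cells had 7 of these higher and 0 lower (median 1.27), 5 of the 7 having passed only through the p53-/- libraries. Postn (periostin) was listed at 0 with p53 and gave 7.44 and 8.69 FPKM without it. Thbs2, the closest relative of Thbs1, stood at 0.102 and 0.191 FPKM against 7.24 and 7.49 FPKM. Ccn2 (connective tissue growth factor) stood at 9.94 and 14.1 FPKM against 41.2 and 37.0 FPKM. After treatment 7 were higher and 1, Spock2, was lower (median 1.14). These were not the same 7, as Ccn1 and Ccn5 fell short of the step and Spp1 and Tgfbi reached it. In p53+/+ cells Spp1 stood at 214 FPKM untreated and 66.3 FPKM with Adriamycin, and Tgfbi at 7.22 and 1.84 FPKM.

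The proteoglycans Bgn and Dcn are small leucine-rich proteoglycans that bind collagen fibrils and TGF-beta. Bgn (biglycan, chrX:70728974-70741275) gave 0.912 FPKM (0.655 to 1.16) and 3.31 FPKM (2.69 to 3.93) with p53. Without p53 it reached 93.8 and 93.6 FPKM, above its own upper bounds of 91.5 and 90.5 FPKM. That was 103-fold more without treatment and 28.2-fold more with it. Dcn (decorin, chr10:96942134-96980796) was listed at 0 with p53 and gave 2.96 and 2.82 FPKM without it, the lowest level of the 10 genes there. One of its 2 transcripts carried 99.4% and 99.99% of that level. Of the 10 other genes of the proteoglycan list only Podn reached 1 FPKM in any library. It stood at 5.89 FPKM in the treated p53+/+ library and at most 0.373 FPKM elsewhere. Bgn and Dcn were thus the genes of this kind read in p53-/- cells at 1 FPKM or more. Under that level, 5 of the 10 others stood higher in both p53-/- libraries than in both p53+/+ libraries. That order is shown by 26.6% of all genes past the filter. The 5 did not pass the filter themselves, so their order is not read as a result. Among these 5 were Lum (0 and 0 against 0.538 and 0.978 FPKM) and Aspn (0 and 0.0352 against 0.760 and 0.894 FPKM).

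Timp3 (chr10:85763157-85812250) encodes an inhibitor of matrix metalloproteinases that stays bound to the matrix. Its level was 2.59 FPKM (2.25 to 2.91) and 3.54 FPKM (3.13 to 3.94) in p53+/+ cells and 19.8 FPKM (18.3 to 20.7) and 20.2 FPKM (18.7 to 21.1) in p53-/- cells. The ratios between genotypes were 7.64 and 5.71. Of 19 further proteases and inhibitors 16 passed the filter, 5 of them only through the p53-/- libraries. In untreated p53-/- cells 8 were higher and 0 lower (median 1.05), where 3.51% of all genes were higher and 3.14% lower. After Adriamycin 6 were higher and 2, Mmp15 and Serpine2, lower (median 0.73), where 6.73% of all genes were higher and 13.0% lower. In each count of higher genes, 2 had passed only through the p53-/- libraries and so had to stand higher there. Mmp3 (stromelysin) was listed at 0 with p53 and gave 14.6 and 15.9 FPKM without it. Timp2, a metalloproteinase inhibitor, gave 1.43 and 2.53 against 16.4 and 16.6 FPKM. Protease and inhibitor genes were thus both among those higher in p53-/- cells.

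Fn1 (fibronectin, chr1:71632047-71699808), the glycoprotein that integrins assemble into fibrils, was abundant in every library. Its summed level was 101 and 76.2 FPKM with p53, and 189 and 175 FPKM without it. The p53-/- level was 1.87-fold higher without treatment (0.89 on the log2(FPKM + 1) scale, short of the step) and 2.30-fold higher after it (1.19). With the most abundant transcript alone the treated difference was 0.60, short of the step.

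The largest part of the extra FPKM in p53-/- cells lay in transcripts with neither extra domain. The transcript with EDB, which also holds EDA, gave 78.4 FPKM (77.7 to 81.2) and 56.01 FPKM (55.0 to 58.1) with p53. It stood at 91.5 FPKM (90.7 to 95.02) and 85.6 FPKM (84.5 to 88.8) in p53-/- cells, 1.17-fold and 1.53-fold more. The 3 transcripts with neither EDB nor EDA summed to 10.5 and 7.37 FPKM in p53+/+ cells and to 66.3 and 56.04 FPKM in p53-/- cells, 6.32-fold and 7.61-fold more. As shares of Fn1, the EDB transcript made up 77.4% and 73.5% in the p53+/+ libraries and 48.4% and 48.8% in the p53-/- libraries. EDA transcripts made up 89.7% and 90.3% against 64.96% and 68.03%. The shares lay closer between treatments of 1 genotype than between genotypes, with no replicate to set a spread.

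**Figure D2:**
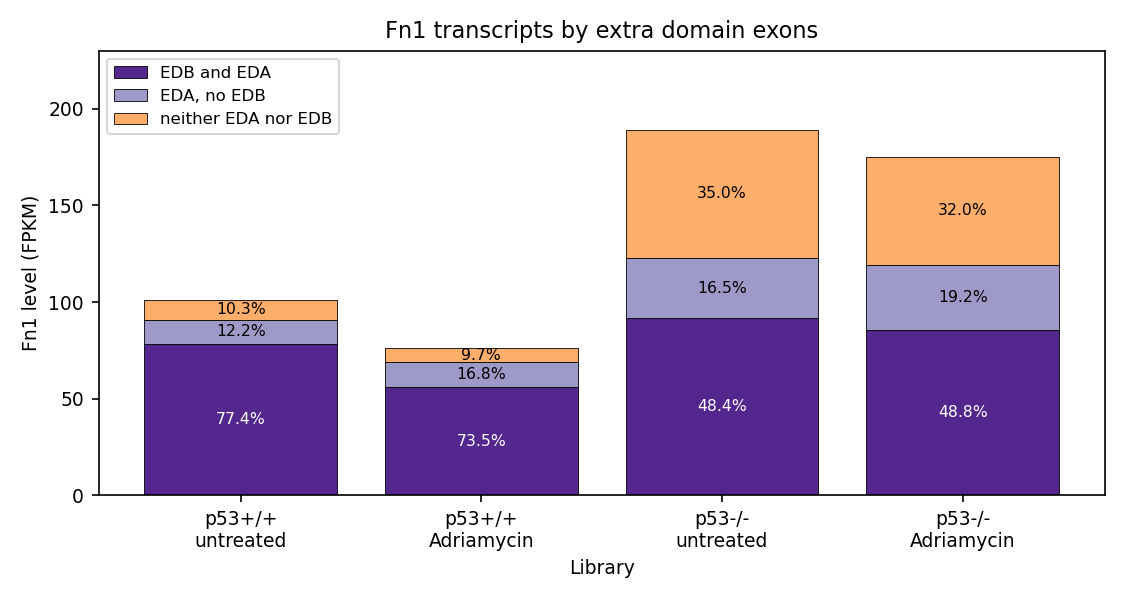
Fn1 level in FPKM (vertical axis, from 0) in each library, stacked by whether a transcript holds the EDB and EDA exons, with each class as a percentage of Fn1. The class with neither exon takes 10.3% and 9.67% of Fn1 in p53+/+ cells and 35.04% and 31.97% in p53-/- cells.

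The variable region differed less. The full variable exon was present in 3 transcripts, which held 93.1% and 95.4% of Fn1 in p53+/+ cells and 88.7% and 93.4% in p53-/- cells. Transcripts with this exon shortened by 75 bases held 4.38% and 2.96% against 9.58% and 5.56%, and those shortened by 360 bases held 2.48% and 1.59% against 1.73% and 0.996%. Only 1 of the 7 transcripts in the annotation holds EDB, so a form with EDB but not EDA could not be counted. These shares rest on how Cufflinks divided reads among overlapping transcripts, which was not tested.

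After Adriamycin the counts of these genes past the step lay near the all-gene shares in both genotypes. In p53+/+ cells 1 of 10 (Bgn, 1.17) was higher by at least 1 and 0 were lower, where 11.4% of all genes were higher and 2.77% lower. The median of the 10 genes was 0.26, beside 0.05 over all genes. Bgn stood 3.64-fold and Thbs1 2.77-fold above the untreated p53+/+ library (Thbs1 0.79 on the log2(FPKM + 1) scale), and Loxl1 1.48-fold, Timp3 1.37-fold and Sparc 1.14-fold. Fn1 was lower by a log2 difference of -0.41. After quantile normalization Bgn stood at 0.78, and 0 of 10 genes reached the step. That normalization also moved the higher genes from 80.4% to 65.4% of the genes past the step in either direction in the p53+/+ response, and from 34.0% to 44.3% of those in the treated genotype comparison. Among the 7 genes with 1 transcript and an FPKM within its bounds in both p53+/+ libraries, 5 had bounds that did not overlap. These were Loxl1, Thbs1, Bgn, Mgp and Timp3, all higher after treatment. For Mgp this followed from its untreated listing at 0, where both bounds are also 0. The share of all genes with bounds apart was not computed, so the 5 are not read as a response.

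In p53-/- cells 0 of 10 genes were higher or lower by at least 1 after Adriamycin, where 0.377% of all genes were higher and 0.461% lower. The median of the 10 genes was -0.08, beside 0.07 over all genes. Tnc had the largest difference, -0.37, followed by Thbs1 at -0.29 and Mgp at -0.20. Of the 5 genes with usable bounds in both p53-/- libraries, Thbs1 and Tnc had bounds that did not overlap, both lower after treatment. The share of all genes with bounds apart was not computed here either, so this is not read as a response. The response with p53 minus that without it reached the step for 2 of the 10 genes, Bgn (1.18) and Thbs1 (1.08), where it was at least 1 for 10.4% and at most -1 for 3.29% of all genes. With quantile normalization these stood at 0.71 and 0.65, so neither reached the step, and the share of positive values among all genes past it went from 76.02% to 65.4%. This last quantity is built from the same 4 libraries as the comparisons before it and adds no data.

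**Figure D3:**
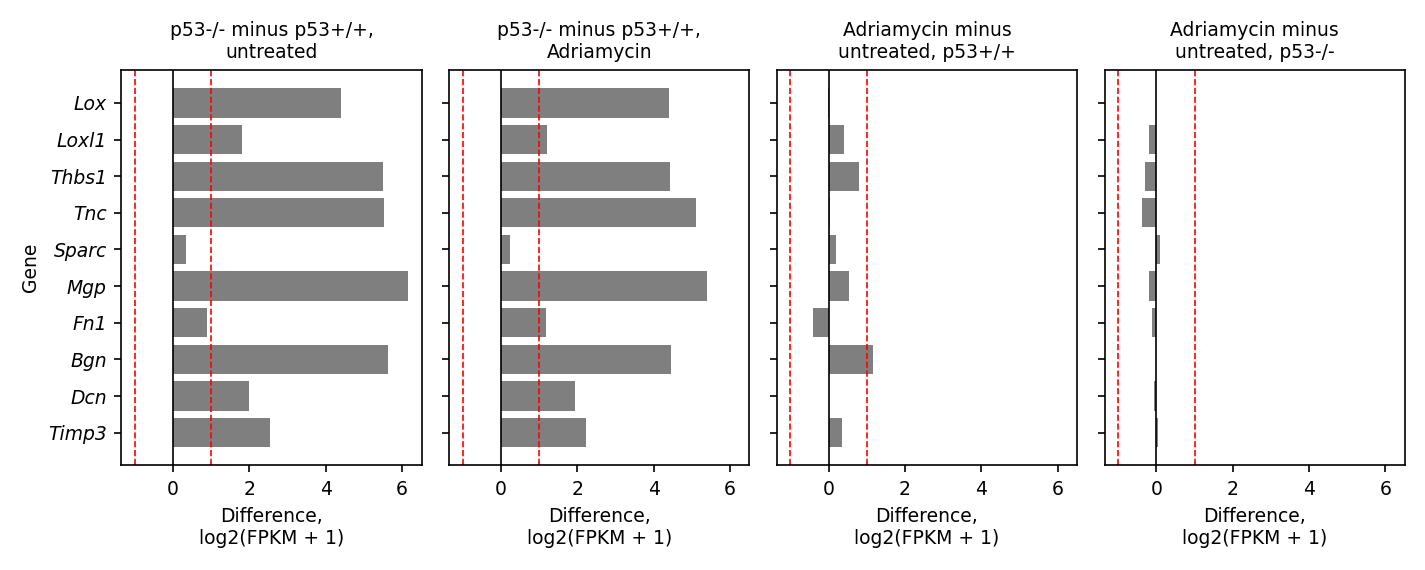
Difference of each gene on the log2(FPKM + 1) scale (horizontal axis) in 4 comparisons of single libraries, with dashed lines at -1 and 1. The left pair of panels (genotypes) reaches 6.15, while the right pair (Adriamycin) stays between -0.41 and 1.17.

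The makeup of the summed RNA of the 10 genes also differed between genotypes. Sparc and Fn1 together made up 97.6% and 95.2% of the summed FPKM of the 10 genes in untreated and treated p53+/+ cells, but 52.9% and 55.5% in p53-/- cells. The summed level was 259 and 261 FPKM in p53+/+ and 720.4 and 683 FPKM in p53-/- cells. The order of the 10 genes was the same in both p53-/- libraries, from Sparc and Fn1 through Bgn, Thbs1, Mgp, Tnc, Lox, Timp3 and Loxl1 to Dcn. In p53+/+ cells Timp3 followed Sparc and Fn1, and 6 of the 10 genes in the untreated and 4 in the treated library were under 1 FPKM.

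Without treatment most elastic fibre genes were higher alongside the 10 genes, and basement membrane genes were not. Of 16 genes for elastic fibres and microfibrils 14 passed the filter, and untreated p53-/- cells had 11 of these higher and 0 lower (median 1.43). Fbln2 (fibulin 2) gave 1.05 and 9.78 FPKM with p53 and 61.3 and 53.1 FPKM without it. Ltbp2 stood at 0.100 and 3.43 FPKM against 4.998 and 5.01 FPKM, and Mfap4 at 0.662 and 4.25 against 5.65 and 6.02 FPKM. After treatment 5 of the 14 were higher between genotypes and 9 reached the step in neither direction (median 0.49). In p53+/+ cells 5 were higher with Adriamycin. The elastin gene Eln was not higher by the step in either genotype comparison, at 0.294 and 1.47 against 0.350 and 0.391 FPKM. Ltbp4 ran lower, at 58.7 and 68.8 against 38.1 and 34.2 FPKM. Of 12 basement membrane genes 0 were higher and 3 lower (Lama1, Col4a1 and Nid1) in untreated p53-/- cells, with a median of -0.46. Between genotypes after Adriamycin 0 were higher and 6 lower (median -0.97), where 6.73% of all genes were higher and 13.0% lower. From untreated to Adriamycin, 0 of the 12 reached the step in either genotype (median 0.33 with p53 and -0.13 without it). Lama1, a laminin chain of the early embryo, stood at 35.7 and 28.9 FPKM in p53+/+ and 9.28 and 6.995 FPKM in p53-/- cells, Col4a1 at 39.2 and 45.1 against 15.7 and 14.0 FPKM, and Nid1 at 49.5 and 37.97 against 23.7 and 24.5 FPKM.

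**Figure D4:**
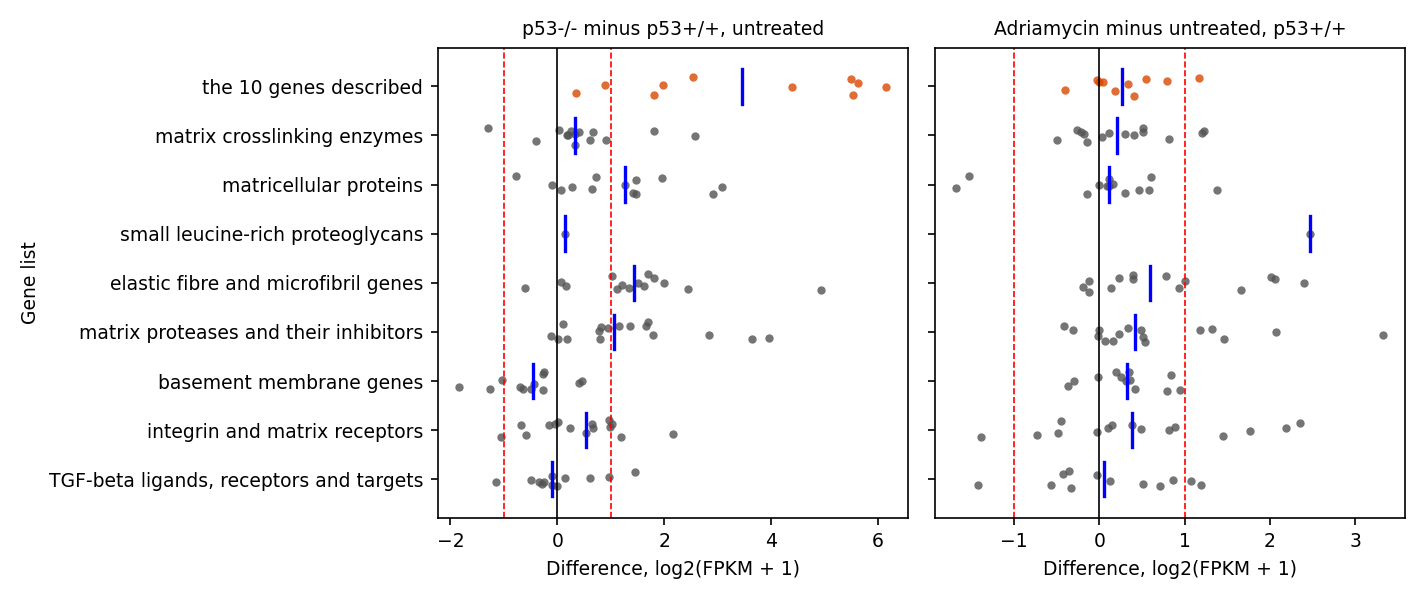
Difference of every gene past the filter on the log2(FPKM + 1) scale (horizontal axis) for the 10 genes and 8 related gene lists, with 1 point per gene, blue bars at list medians and dashed lines at -1 and 1. In the left panel the median is 3.46 for the 10 genes, 1.43 for elastic fibre genes and -0.46 for basement membrane genes. In the right panel the median is 0.26 for the 10 genes.

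Many fibroblast and mesenchyme markers were higher in the same libraries as the 10 genes. Of 20 markers, none of them among the 10 genes, 16 passed the filter, and untreated p53-/- cells had 12 of these higher and 0 lower (median 2.19). After treatment 11 were higher and 0 lower. Of the 16, 8 passed only through the p53-/- libraries and so had to stand higher there; of the other 8, 4 were higher without treatment and 3 after it. The summed level of all 20 markers was 39.9 and 53.6 FPKM with p53 and 400.45 and 344 FPKM without it. The type I collagen genes Col1a1 (0.727 and 5.03 against 151 and 117 FPKM) and Col1a2 (0.169 and 0.206 against 69.7 and 59.8 FPKM) led the list with S100a4 (0.239 and 0.361 against 30.1 and 31.4 FPKM). Col3a1, Prrx1, Fap, Dpt and Lum were listed at 0 in both p53+/+ libraries, and no marker was at 0 in the p53-/- libraries. Pdgfra, a receptor of many mesenchymal cells, did not reach the step and ran the other way, at 2.22 and 2.23 against 0.898 and 1.03 FPKM. The part of such cells in the level of the 10 genes was not tested.

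**Figure D5:**
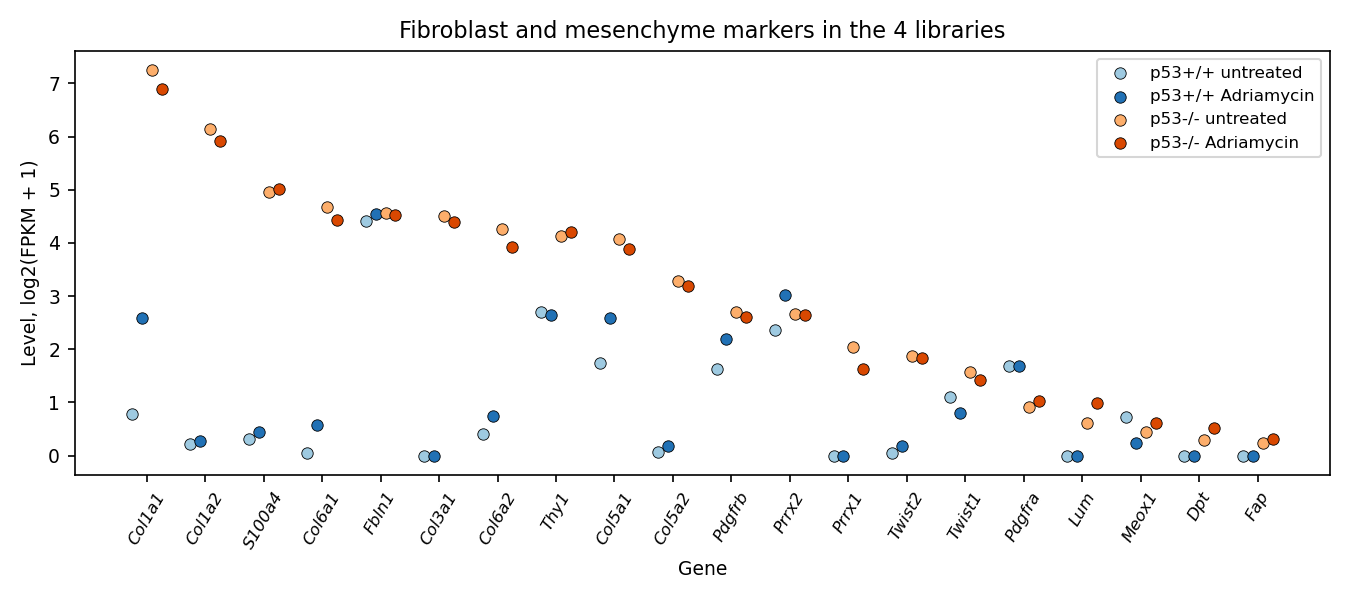
Level of the 20 fibroblast and mesenchyme markers on the log2(FPKM + 1) scale (vertical axis), with 1 point per library, ordered by their level in untreated p53-/- cells. For 16 of the 20 both p53-/- libraries stand above both p53+/+ libraries, an order that 26.6% of all genes past the filter show. The 16 include Fap, Dpt and Lum, which stayed under 1 FPKM in every library. Pdgfra lies lower in both p53-/- libraries.

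Many markers of primitive and parietal endoderm, an early lineage rich in Sparc and laminin, went the other way. Of 15 markers 12 passed the filter, and 8 were lower and 1, Thbd, was higher in untreated p53-/- cells. Over all genes 3.14% were lower and 3.51% higher. Of the 8, Srgn, Gata4, Gata6, Sox7 and Hnf4a passed only through the p53+/+ libraries and so had to stand lower without p53. Thbd passed only through the p53-/- libraries and had to stand higher there. The summed level of all 15 markers was 179 and 197 FPKM in p53+/+ and 80.8 and 79.3 FPKM in p53-/- cells. No endoderm marker was at 0 in the p53+/+ libraries, Foxa2 and Ttr were at 0 in the untreated p53-/- library and Ttr in the treated one. Srgn stood at 14.6 and 18.1 against 0.257 and 0.827 FPKM, Dab2 at 8.88 and 6.09 against 1.14 and 1.47 FPKM, and Gata4 at 5.32 and 5.05 against 0.529 and 0.753 FPKM. The list shares Lama1, Lamb1, Col4a1 and Col4a2 with the basement membrane genes. Its part in the level of Sparc or Fn1 was not tested.

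Among 9355 genes with at least 5 FPKM in a library, the 8 whose pattern over the 4 libraries lay closest to the median pattern of the 10 genes were Igf2, Col5a2, Postn, Col6a2, Aebp1, Snhg9, Grem1 and Cav1. Likeness was the Euclidean distance between log2(FPKM + 1) values centred on each gene's mean, from 0.220 for Igf2 to 0.455 for Cav1. The 10 genes themselves lay at 0.941 (Timp3) to 3.03 (Sparc) from their own median, which is farther than the 8, themselves picked as the closest. Igf2, a fetal growth factor, stood at 1.795 and 1.83 FPKM in p53+/+ cells and at 27.5 and 25.7 FPKM in p53-/- cells. Grem1, a secreted BMP antagonist, was at 0 and 0.0260 FPKM against 11.0 and 7.40 FPKM, and the caveola gene Cav1 at 0.0468 and 0.0970 against 6.59 and 7.63 FPKM. Postn and Col5a2 are themselves on the matricellular and fibroblast lists, and Col6a2 on the latter.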

How the data were processed

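The authors deposited 1 table per library of FPKM for RefSeq transcripts, with lower and upper bounds of each FPKM, transcript length and coverage (mean read depth), per the file headers. CASAVA 1.8.1, TopHat2 2.0.5, TopHat and Cufflinks and the build mm9 are named, per the submitters' processing notes; the annotation used is not given in the sources used here. An exome enrichment kit is listed for the libraries, per the labels' protocols. Depth was estimated from the deposited coverage signal times length. Deposited starts count from 0 (the span equals the length in 3327 rows without introns, and in 0 rows if counted from 1), so 1 was added.

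Of 30769 rows 30407 were named, 30227 from a RefSeq table (GRCm38) and 180 from GENCODE M21; 814 short RNA rows were left out. FPKM were summed per gene, with a pseudocount of 1 FPKM, a filter of 1 FPKM and a step of 1 on the log2 scale, in Python 3.11.15 with pandas 2.3.3, numpy 2.4.6 and matplotlib 3.10.9. The calculations were tested on simulated data. The 10 genes, the lists and the comparisons were chosen with earlier results of these data known. All 10 genes are named; each list gives up to 3 genes with the widest untreated genotype difference; genes whose pattern is most like that of the 10 follow a distance rule. Further names were picked with their values in view. Alternatives were other pseudocounts, filters, scalings, steps and transcript choices, plus facing bounds.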

Additional observations from a re-analysis of the deposited data

How the results depend on the processing

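With single libraries no value has a replicate check, and reads near 0 limit Lox, Tnc, Mgp and Dcn in p53+/+ cells. No paired analysis was possible because each group has 1 library. The count of the 10 genes higher in p53-/- cells stayed between 6 and 9 in both genotype comparisons, and the count lower stayed at 0 in all 5 comparisons, under every alternative run. For the p53+/+ response the count of 1 higher gene became 3 with a pseudocount of 0.1 FPKM and 2 at a 1.5-fold step. It was 0 with a pseudocount of 5 FPKM, after quantile normalization, at a 4-fold step, and with facing bounds (the lower bound of the higher library against the upper bound of the lower one), an alternative added after seeing the data that gives no response difference. For the response difference the count of 2 became 3 with a pseudocount of 0.1 FPKM (Mgp at 2.68), 4 at a 1.5-fold step, and 0 with a pseudocount of 5 FPKM, after quantile normalization and at a 4-fold step. The median of the 10 genes in the untreated genotype comparison ranged from 2.04 (pseudocount of 5 FPKM) to 5.74 (pseudocount of 0.1 FPKM). Loxl1 in the treated genotype comparison stood at 0.73 with a pseudocount of 5 FPKM and 0.89 with facing bounds, and with that pseudocount Dcn stood at 0.67 untreated and 0.65 treated. Counts over all genes were lowest at the 4-fold and highest at the 1.5-fold step, at 72 to 1338 higher and 49 to 1432 lower in the untreated genotype comparison and 106 to 2306 and 495 to 3050 in the treated one. They were 342 to 2824 and 12 to 1465 for the p53+/+ response, 15 to 207 and 7 to 192 for the p53-/- response, and 317 to 2584 and 28 to 1795 for the response difference. After quantile normalization the all-gene median of the p53+/+ response was -0.10 in place of 0.05, and that of the treated genotype comparison 0.10 in place of -0.02. The causes were not tested.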

Other observations

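Receptors for these matrix proteins were less uniform. Of 20 integrin and other receptor genes 15 passed the filter, with 3 higher (Cd44, Itgb1 and Itgb3) and 1 lower (Itga9) in untreated p53-/- cells and a median of 0.54. After Adriamycin the median was -0.19, with 4 higher (Itga5 in addition) and 3 lower (Sdc4, Ddr1 and Itga8). Itga8 had passed the filter only through the treated p53+/+ library. Itgb1, the beta chain shared by most fibronectin and collagen integrins, gave 38.8 and 22.96 FPKM with p53 and 89.5 and 88.6 FPKM without it (untreated, then Adriamycin). Cd44, the hyaluronan receptor, stood at 0.199 and 1.10 against 4.39 and 4.94 FPKM. Itga9, an integrin chain that binds tenascin C, stood at 6.56 and 4.38 against 2.65 and 2.18 FPKM. Of 13 TGF-beta genes 12 passed the filter, with 1 higher (Tgfb3) and 1 lower (Smad7) and a median of -0.09. After Adriamycin Tgfb1 and Tgfb3 were higher and Tgfbr3 lower (median -0.05). Tgfb3 had passed the filter only through the p53-/- libraries and Tgfbr3 only through the treated p53+/+ library. The pathway inhibitor Smad7 stood at 34.3 and 26.6 against 14.9 and 13.1 FPKM.

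Smooth muscle markers were higher in 4 of the 5 that passed the filter in untreated p53-/- cells (median 1.605), 2 of them passing only through the p53-/- libraries. After Adriamycin 2 were higher and 1, Des, lower (median 0.39). Acta2 (smooth muscle actin) stood at 0.535 and 0.333 FPKM in p53+/+ and 22.6 and 12.9 FPKM in p53-/- cells, and Tagln at 3.79 and 3.16 against 37.7 and 24.6 FPKM. Des (desmin) stood at 8.47 and 41.9 against 9.84 and 9.17 FPKM. Of the bone and cartilage markers 4 passed the filter, with 0 higher and 0 lower without treatment. After Adriamycin 0 were higher and 3 lower (Matn1, Bglap and Col2a1, median -1.30), where 13.0% of all genes were lower. Matn1 and Bglap reached 1 FPKM only in the treated p53+/+ library, so they had to stand lower in this comparison. Matn1 (matrilin 1, a cartilage matrix protein) gave 0.443 and 22.7 FPKM with p53 and 0.0266 and 0.0242 FPKM in p53-/- cells. Endothelial markers had 2 and blood cell markers 1 past the filter, with 0 higher and 0 lower without treatment. After Adriamycin the endothelial gene Tek was lower, at 9.35 FPKM with p53 and 0.942 FPKM without it. Tek had passed the filter only through the p53+/+ libraries.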
